A study of Mus musculus with 6 samples.

Results

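Neutrophil granule and maturation genes were followed in splenic cells of mice given rapamycin or PBS after a bone marrow transplantation. The set is 38 genes that neutrophils switch on in sequence as they mature, chosen by name for their known roles. A gene entered through a probe set to which the platform annotation gives exactly 1 symbol, and 34 of the 38 had such a probe set, out of 19938 named genes on the array. Each of the 34 had 1 probe set. Fpr1 and Fpr2, the formyl peptide receptors, and Stfa1 and Stfa2l1, inhibitors of cysteine proteases, are not analysed here as single genes. Expression was measured on 6 arrays, 1 per mouse, with 3 mice given PBS and 3 given rapamycin, which inhibits the kinase mTOR, at 1.5 mg/kg by intraperitoneal injection on alternate days.

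All mice were B6D2F1/J recipients, F1 hybrids that had been lethally irradiated and then received marrow of B6 mice depleted of T cells. The protocol allows B6 spleen cells with or without the marrow and does not say which mice received them. Spleens were taken 10 days after the transplantation, and cells were enriched with magnetic beads against CD11b (Itgam), an integrin that neutrophils share with monocytes and macrophages. The labels call these cells myeloid-derived suppressor cells, but the sort does not separate neutrophils from the other CD11b+ cells, and whether a sorted cell came from donor or host is not given. The ages of the mice are not given in the sources used here. Neutrophil markers were bright: S100a8, S100a9 and Ly6g stood at log2 values of 13.25 ± 0.06, 13.54 ± 0.05 and 12.29 ± 0.09 (mean ± SD, n = 3) with PBS. Itgam, the target of the beads, stood at 12.39 ± 0.08. The array medians lay between 5.42 and 5.46.

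Neutrophils load their granules in the order in which they are made. Promyelocytes fill the primary, or azurophil, granules with myeloperoxidase and serine proteases. Myelocytes and metamyelocytes then fill the secondary granules with lactoferrin, lipocalin and cathelicidin, and segmented cells finally gain receptors for chemoattractants and growth factors. Under stress of the marrow, such as transplantation, the mouse spleen also makes neutrophils, so that early and late stages can lie side by side in it.

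With rapamycin 3 of the 33 genes bright enough to test passed, or 9.09%, against 11.3% of all genes tested. All 3 were late-stage genes, and the rest did not pass. The stages were chosen with earlier results of these data known, so the split by stage is a description. Cd101, a surface glycoprotein of mature neutrophils, was 2.17-fold lower. Ltb4r1, the receptor for the chemoattractant leukotriene B4, was 1.34-fold lower. Slpi, a secreted inhibitor of neutrophil elastase and cathepsin G, was 1.40-fold higher. None of the 7 primary-stage and 16 secondary-stage genes tested passed at an adjusted p under 0.05 with limma, where 11.3% of all genes did. At an unadjusted p under 0.05 there were 2 primary-stage and 3 secondary-stage genes, against 28.2% of all genes.

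Of the 33 genes bright enough to test, 1 was called higher, 2 lower and 30 neither, or 9.09% called against 11.3% of all 13965 genes tested. Among all genes 4.42% were called higher and 6.92% lower. At an unadjusted p under 0.05 there were 10 of the 33, against 28.2% of all genes. The arrays of both groups did not overlap for 9 of the 33, or 27.3%, against 32.0% of all genes. With rapamycin 4 lay wholly above PBS, against 12.6% of all genes, and 5 wholly below, against 19.4%. The share called in the set was near that of the array as a whole. The median log2 change of the set was -0.0034 and that of all genes tested -0.017, with median sizes regardless of sign of 0.11 and 0.090. By stage, 0 of 7 primary, 0 of 16 secondary and 3 of 10 late-stage genes were called. The split of all calls, 617 higher and 967 lower, was 875 and 707 with the medians of the genes tested aligned between arrays and 548 and 1341 with the medians of all probe sets aligned. The same 3 members were called under both. In whole-tissue or sorted-cell RNA such as this, fewer cells of a stage and less RNA per cell cannot be told apart.

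A p that misses the threshold does not show equal levels, so the 95% intervals of the log2 changes, from limma's moderated errors, were also read. For 27 of the 33 genes the interval lay within a 1.5-fold change in either direction, and for 16 of them within 1.2-fold. For the 6 others, Mpo, Ctsg, Olfm4, Cd101, Slpi and Ltb4r1, it reached beyond 1.5-fold. The intervals within 1.5-fold and 1.2-fold made up 81.8% and 48.5% of the set, against 94.97% and 55.8% of all genes tested. These shares fall with larger changes as well as with wider intervals, and Cd101, Slpi and Ltb4r1 among the 6 were called.

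**Figure D1:**
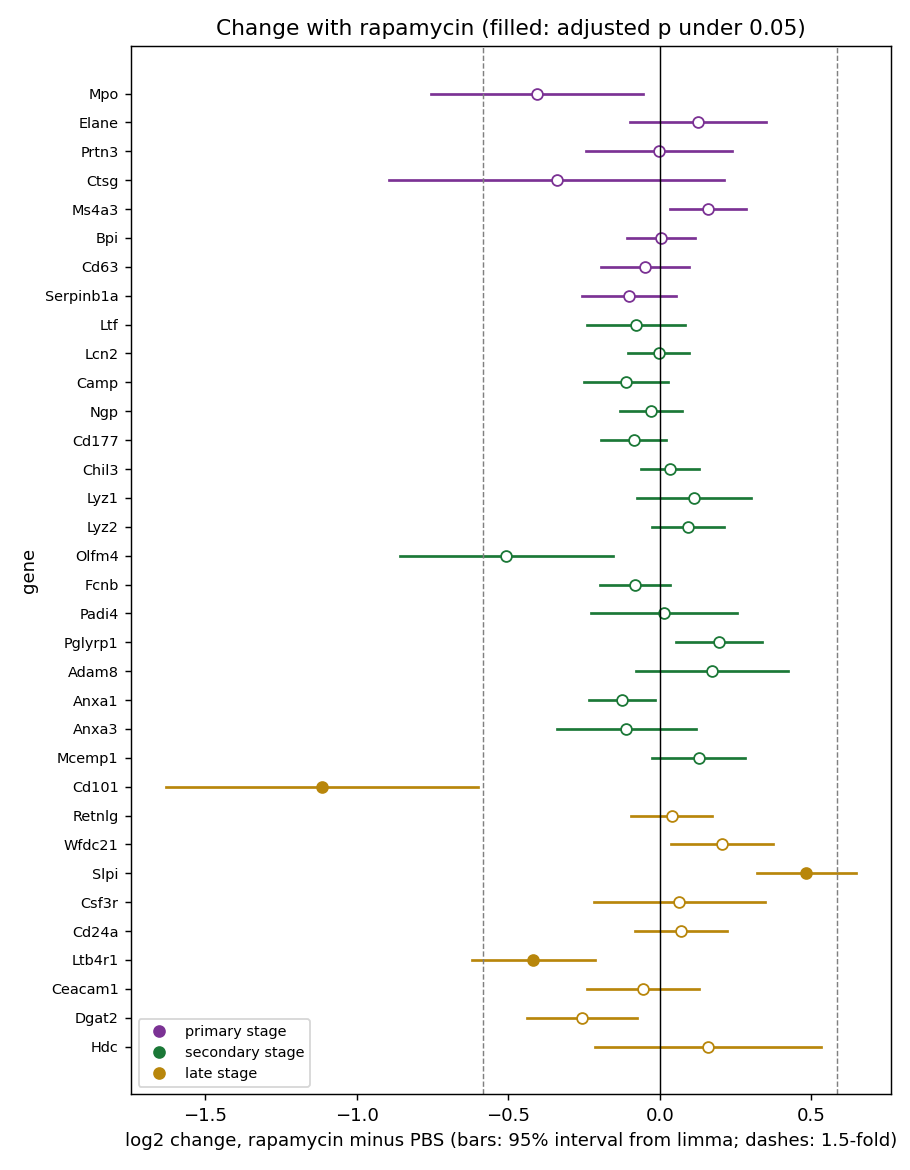
Log2 change with rapamycin (rapamycin minus PBS, x axis) for the 34 measured genes (y axis), coloured by stage. Bars are 95% intervals from limma, filled points passed at an adjusted p under 0.05 and dashed lines mark 1.5-fold; Bpi comes from the fit without a brightness filter. Cd101, at -1.12, lies farthest from 0, and the secondary-stage genes other than Olfm4 sit within 0.20 of 0.

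The start regions of 6 of these genes are shown because they carry the letter patterns that factors of granule gene expression read: C/EBP proteins, among them C/EBPε of the secondary granule stage, and PU.1, the master regulator of myeloid cells. The windows run from 250 bases before to 50 after the start of the gene, from RefSeq on GRCm38.p6, and the table held one for 29 of the 34 measured genes. Capitals mark matches to TTGCNNAA for C/EBP or GAGGAA for PU.1 on either strand, and in these 6 windows no base belonged to both. Mpo lies on the plus strand at chr11:87793534-87793833, Ngp on the plus strand at chr9:110419558-110419857 and Ltf on the plus strand at chr9:111019042-111019341. Cd101 lies on the minus strand at chr3:101029504-101029803, Ltb4r1 on the plus strand at chr14:55765712-55766011 and Slpi on the minus strand at chr2:164356458-164356757.
Mpo: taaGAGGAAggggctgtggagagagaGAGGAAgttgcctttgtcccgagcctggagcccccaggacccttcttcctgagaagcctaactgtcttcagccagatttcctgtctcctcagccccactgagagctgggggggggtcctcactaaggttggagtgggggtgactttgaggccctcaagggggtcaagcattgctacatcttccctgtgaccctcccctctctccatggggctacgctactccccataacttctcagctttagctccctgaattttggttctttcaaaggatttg
Ngp: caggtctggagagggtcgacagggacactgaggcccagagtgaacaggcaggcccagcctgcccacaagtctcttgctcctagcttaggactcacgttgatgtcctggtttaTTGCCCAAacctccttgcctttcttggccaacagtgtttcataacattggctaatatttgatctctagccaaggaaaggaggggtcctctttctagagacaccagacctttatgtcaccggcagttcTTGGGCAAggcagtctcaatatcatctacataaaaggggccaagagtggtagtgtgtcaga
Ltf: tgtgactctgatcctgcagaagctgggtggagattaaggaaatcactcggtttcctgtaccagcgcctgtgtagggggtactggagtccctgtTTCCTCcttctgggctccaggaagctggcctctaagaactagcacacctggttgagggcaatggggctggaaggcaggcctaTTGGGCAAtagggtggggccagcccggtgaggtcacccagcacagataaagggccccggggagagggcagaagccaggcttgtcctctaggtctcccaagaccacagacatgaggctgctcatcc
Cd101: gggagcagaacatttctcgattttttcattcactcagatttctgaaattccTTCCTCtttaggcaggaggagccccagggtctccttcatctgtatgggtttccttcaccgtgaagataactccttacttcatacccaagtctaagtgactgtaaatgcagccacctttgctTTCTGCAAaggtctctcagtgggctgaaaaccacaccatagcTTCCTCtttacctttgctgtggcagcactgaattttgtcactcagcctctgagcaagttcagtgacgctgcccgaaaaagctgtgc
Ltb4r1: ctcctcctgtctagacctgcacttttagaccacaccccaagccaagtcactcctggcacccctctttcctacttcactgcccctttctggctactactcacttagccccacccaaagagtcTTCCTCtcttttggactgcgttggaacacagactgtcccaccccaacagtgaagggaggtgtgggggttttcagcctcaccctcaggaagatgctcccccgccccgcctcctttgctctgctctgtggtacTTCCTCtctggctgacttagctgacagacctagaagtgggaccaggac
Slpi: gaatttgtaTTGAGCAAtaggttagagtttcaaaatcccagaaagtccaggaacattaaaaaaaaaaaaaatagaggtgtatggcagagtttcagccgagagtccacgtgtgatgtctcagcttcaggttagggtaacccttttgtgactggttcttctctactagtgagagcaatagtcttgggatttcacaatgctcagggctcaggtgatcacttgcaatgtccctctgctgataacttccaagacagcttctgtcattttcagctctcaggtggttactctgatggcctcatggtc
Ngp holds 2 matches to the C/EBP letters and none to the PU.1 letters, and Mpo holds 2 of PU.1 and none of C/EBP. Ltf holds 1 of each, Cd101 1 of C/EBP and 2 of PU.1, Ltb4r1 2 of PU.1 only, and Slpi 1 of C/EBP only. Both genes called lower thus hold the PU.1 letters and Slpi does not, which with 3 genes is a description.

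Over the 29 windows, the C/EBP letters were in 11, or 37.9%, against 10.8% of all 32851 windows of this length in the table. The PU.1 letters were in 17, or 58.6%, against 28.3%. By stage, 7 of 7 primary genes held the PU.1 letters and 1 of 7 the C/EBP letters. Of 15 secondary genes, 6 held the PU.1 letters and 7 the C/EBP letters. Of 7 late-stage genes, 4 held the PU.1 letters and 3 the C/EBP letters. These are matches of letters, with no binding measured here. The comparison windows were all those in the table, not matched to the members by expression or base composition.

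**Figure D2:**
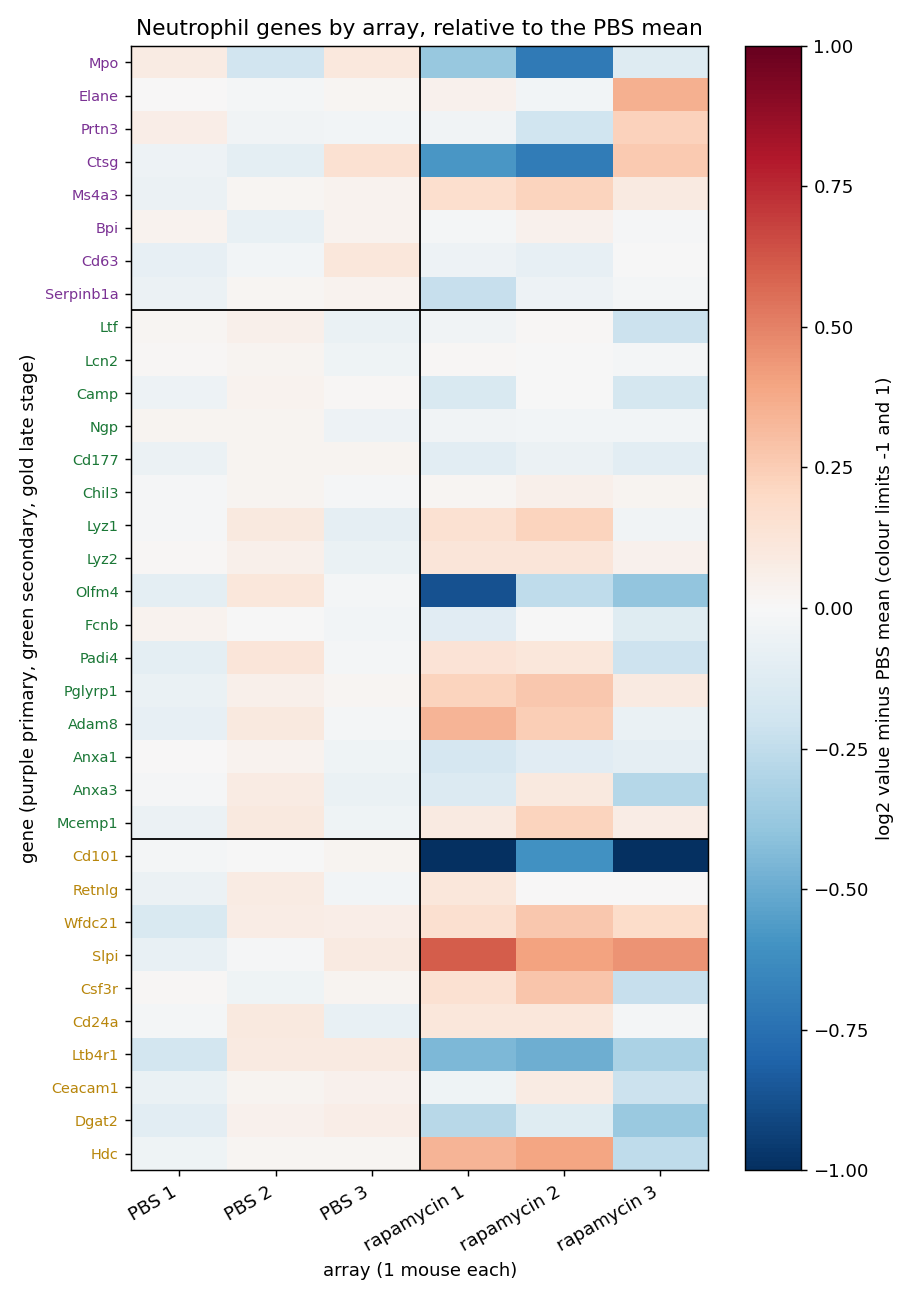
Log2 value of each of the 34 genes (rows) in each of the 6 arrays (columns), minus the gene's mean over the 3 PBS arrays; the colour scale ends at -1 and 1, and Cd101 in rapamycin replicates 1 and 3 lies below it. Most rows are pale in all columns, Cd101 and Ltb4r1 are blue and Slpi is red in all 3 rapamycin arrays, and Mpo and Ctsg are darkest in rapamycin replicates 1 and 2.

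Among the primary granule genes, Mpo encodes myeloperoxidase, which makes hypochlorous acid in the phagosome. Its log2 values were 10.18, 9.90 and 10.20 with PBS and 9.72, 9.38 and 9.97 with rapamycin. The ranges overlapped through PBS replicate 2 and rapamycin replicate 3. The change was -0.40 ± 0.15 (SE), with an adjusted p of 0.125 in limma, and it was -0.25 without rapamycin replicate 2 (adjusted p 0.244). Ctsg, the serine protease cathepsin G, stood at 7.47, 7.42 and 7.68 with PBS and at 6.94, 6.82 and 7.79 with rapamycin. Rapamycin replicates 1 and 2 lay below every PBS array and replicate 3 above every PBS array. The change of Ctsg was -0.34 ± 0.24 (limma adjusted p 0.391), and it rested on which rapamycin mice were included. It was -0.64 without rapamycin replicate 3 (limma adjusted p 0.0200), -0.22 without replicate 1 (0.686) and -0.16 without replicate 2 (0.710).

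Elane, neutrophil elastase, and Prtn3, proteinase 3, are serine proteases encoded by genes that neighbour each other on chromosome 10. Elane stood at 11.16, 11.13 and 11.17 with PBS and at 11.20, 11.13 and 11.51 with rapamycin. Prtn3 stood at 10.70, 10.60 and 10.61 with PBS and at 10.60, 10.44 and 10.87 with rapamycin. For both, rapamycin replicate 3 was the highest of the 6 arrays and rapamycin replicate 2 the lowest. Their changes were 0.13 ± 0.096 and -0.0021 ± 0.10 (SE, limma adjusted p 0.432 and 0.993), and that of Prtn3 was positive with the medians of the genes tested aligned (0.030).

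Ms4a3, a membrane protein that marks granulocyte and monocyte progenitors, stood at 9.21, 9.29 and 9.30 with PBS and at 9.43, 9.49 and 9.35 with rapamycin. All 3 rapamycin arrays lay above all PBS arrays, but the change of 0.16 ± 0.05 did not pass the test (limma adjusted p 0.0994). Serpinb1a, a cytosolic inhibitor of these proteases, ranged from 12.21 to 12.48 over the 6 arrays with a change of -0.10 ± 0.07 (SE). Cd63, a tetraspanin of the azurophil granule membrane, ranged from 6.89 to 7.10 with a change of -0.048 ± 0.062, and was at 0.010 without PBS replicate 3. Bpi, an azurophil granule protein in human neutrophils, was under the brightness threshold of 4.72, at 4.13 ± 0.07 with PBS and 4.13 ± 0.04 with rapamycin (mean ± SD, n = 3).

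Basophils, mast cells and early progenitors can also hold granule proteases and peroxidase transcripts, and some of their markers were lower on average with rapamycin. Mcpt8, a basophil protease, stood at 6.40, 6.02 and 6.26 with PBS and at 5.38, 5.20 and 5.99 with rapamycin. Cpa3, mast cell carboxypeptidase, stood at 6.08, 5.91 and 5.85 with PBS and at 5.14, 5.22 and 5.78 with rapamycin. Prss34, another of these markers, stood at 6.91, 6.73 and 6.58 with PBS and at 6.17, 6.20 and 6.56 with rapamycin. In Mcpt8, Cpa3 and Prss34, as in Mpo and Ctsg, rapamycin replicate 3 was the highest of its group. Unlike in Mpo and Ctsg, all their rapamycin arrays lay below all their PBS arrays. They did not pass the test (limma adjusted p 0.0660, 0.0664 and 0.0684). In Hgf, Kit and Gata2 another rapamycin array was the highest. Of 12 measured basophil and mast cell markers 7 were bright enough to test, and 1, Hgf, fell, or 14.3% against 11.3% of all genes. Ms4a2, Fcer1a, Cd200r3, Tpsab1 and Cma1 were under the brightness threshold. The summed level of that list, on the log2 scale, was 9.45 to 9.50 with PBS and 9.01 to 9.22 with rapamycin. Without Hgf, singled out after its value was seen, it was 9.01 to 9.13 and 8.71 to 8.98. Kit, Il4 and Gata2 of the list differed by 0.040, 0.033 and -0.077 and did not pass the test. The progenitor list had 0 calls among 7 tested with limma and 2 at an unadjusted p under 0.05, with Cd34, Sox4, Mecom and Slamf1 under the threshold, and summed to 9.49 to 9.55 with PBS and 9.38 to 9.44 with rapamycin. The part of these cells in the values of Mpo and Ctsg was not tested.

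**Figure D3:**
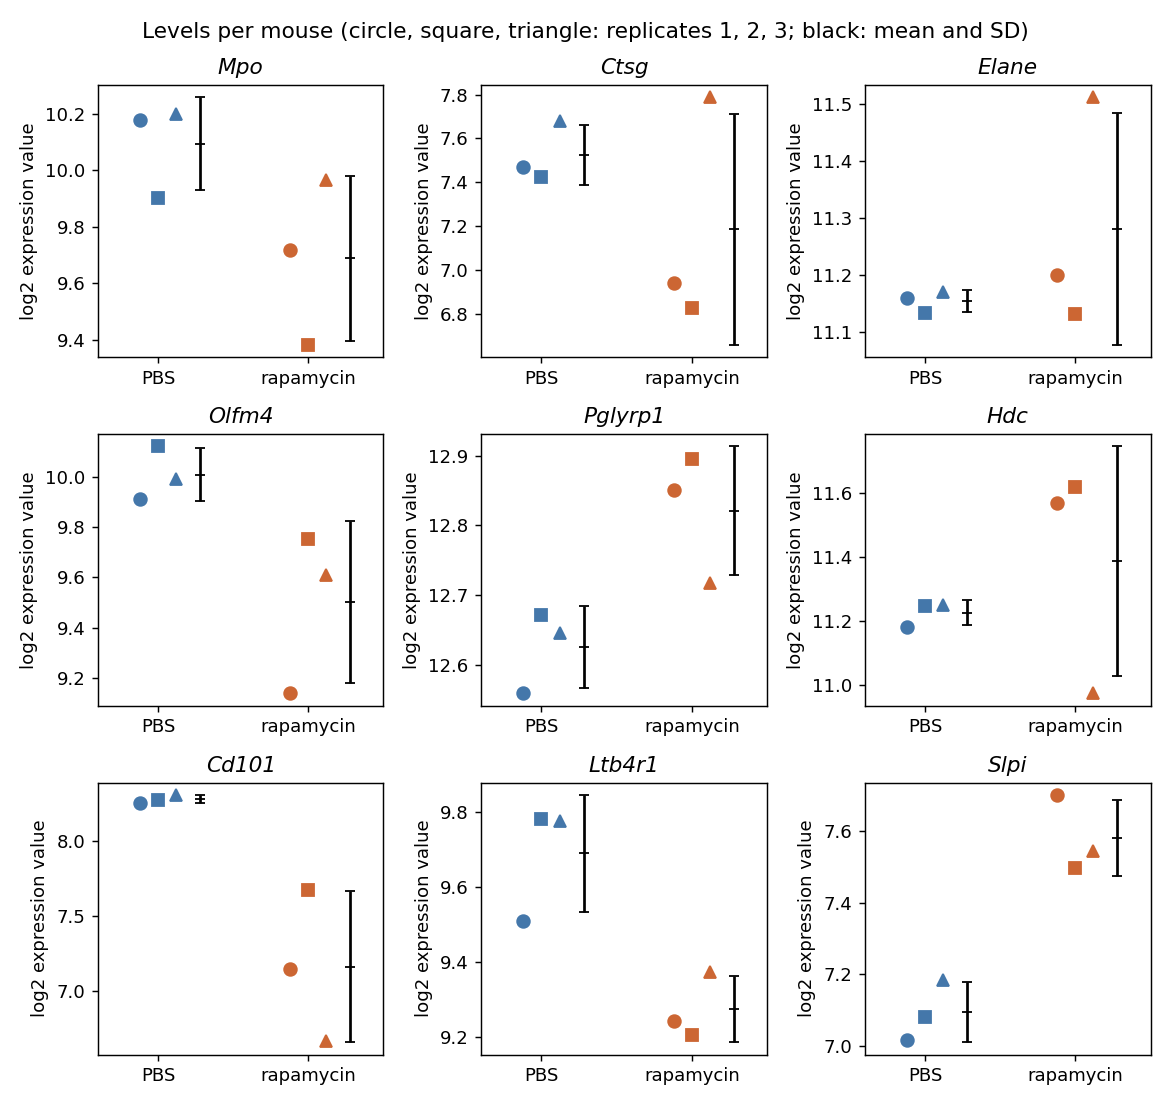
Log2 expression values (y axis) of 9 genes in each mouse given PBS (blue) or rapamycin (orange); circles, squares and triangles are replicates 1, 2 and 3, and black bars are the mean and SD. Cd101, Ltb4r1 and Slpi show groups that do not overlap, and in Ctsg, Elane and Hdc rapamycin replicate 3 lies apart from the other rapamycin arrays.

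The core secondary granule genes were among the brightest probe sets of the array, and none passed the test. Array signal can be compressed near the top of its range, so that a change there is understated, and this was not tested. Of the 34 genes, 12 had a mean above the 99th percentile of all probe sets (12.22), where the highest value on any array was 14.22. Ltf, lactoferrin, which binds iron, stood at 13.27, 13.30 and 13.18 with PBS and at 13.21, 13.26 and 13.04 with rapamycin. Lcn2, lipocalin 2, which captures bacterial siderophores, stood at 13.85, 13.87 and 13.80 with PBS and at 13.85, 13.84 and 13.82 with rapamycin. Camp, the antimicrobial cathelicidin, stood at 12.86, 12.94 and 12.92 with PBS and at 12.75, 12.90 and 12.73 with rapamycin. In all 3 genes the groups overlapped.

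Their log2 changes were -0.077 ± 0.069 for Ltf, -0.0034 ± 0.043 for Lcn2 and -0.11 ± 0.06 for Camp (SE). The sign of Lcn2 turned in several settings, among them quantile normalization again (0.0041) and aligned medians of the genes tested (0.028). Ngp, neutrophilic granule protein, had the narrowest spread of any of these genes with rapamycin (SD 0.0041, n = 3). It changed by -0.029 ± 0.043, and by 0.0028 with the medians of the genes tested aligned. Cd177, a surface receptor also stored in these granules, changed by -0.086 ± 0.046, and Chil3, the chitinase-like lectin Ym1, by 0.034 ± 0.041.

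Olfm4, olfactomedin 4, a glycoprotein of a subset of neutrophils, showed the largest difference of the secondary-stage genes. It stood at 9.91, 10.12 and 9.99 with PBS and at 9.14, 9.75 and 9.61 with rapamycin. All rapamycin arrays lay below all PBS arrays, and rapamycin replicate 1 was the lowest. The change of -0.51 ± 0.15 did not pass the test (limma adjusted p 0.0728), though it did after quantile normalization again (-0.54, adjusted p 0.0469), and without rapamycin replicate 1 it was -0.33 (adjusted p 0.102). Anxa1, annexin A1, which dampens neutrophil recruitment, stood at 12.82, 12.85 and 12.77 with PBS and at 12.64, 12.70 and 12.72 with rapamycin. Its groups did not overlap either, and its change of -0.12 ± 0.05 passed only in the same setting (-0.20, adjusted p 0.0329, against 0.125 on the deposited values, both with limma).

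Pglyrp1, a peptidoglycan recognition protein that acts on bacterial walls, was the secondary-stage gene whose rapamycin arrays all lay above the PBS arrays. It stood at 12.56, 12.67 and 12.65 with PBS and at 12.85, 12.90 and 12.72 with rapamycin. The change of 0.20 ± 0.06 did not pass the test (limma adjusted p 0.0839), and without rapamycin replicate 3 it was 0.25 (adjusted p 0.0455).

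The lysozymes Lyz1 and Lyz2, which cleave bacterial cell walls, are neighbours on chromosome 10 and near-identical in sequence, so their probe sets can share signal. Their changes were 0.11 ± 0.08 and 0.094 ± 0.050 (SE), and Lyz2 is also a gene of monocytes and macrophages. Fcnb, a ficolin that binds bacterial sugars, changed by -0.082 ± 0.050. Mcemp1, a membrane protein first described in mast cells, changed by 0.13 ± 0.07. None of these passed the test, with limma's adjusted p between 0.245 and 0.404.

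Padi4, the deiminase that opens chromatin for extracellular traps, stood at 9.42, 9.64 and 9.50 with PBS and at 9.66, 9.63 and 9.31 with rapamycin. Adam8, a sheddase of adhesion molecules, stood at 9.52, 9.70 and 9.57 with PBS and at 9.93, 9.84 and 9.53 with rapamycin. Anxa3, a calcium-binding annexin of neutrophil granules, stood at 10.59, 10.68 and 10.53 with PBS and at 10.46, 10.70 and 10.31 with rapamycin. In all 3 genes rapamycin replicate 3 was the lowest rapamycin array. Their changes were 0.014 ± 0.10, 0.17 ± 0.11 and -0.11 ± 0.10 (SE), with limma's adjusted p between 0.336 and 0.949, and that of Padi4 was negative after quantile normalization again (-0.020) and with the medians of all probe sets aligned (-0.010).

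Cd101 had the largest change of the set. It stood at 8.25, 8.27 and 8.30 with PBS and at 7.14, 7.67 and 6.66 with rapamycin (probe set 10500656). The PBS mice were nearly alike, with an SD of 0.026, and the rapamycin mice spread over an SD of 0.50, all below the PBS mice. The log2 change was -1.12 ± 0.22 (SE), with a 95% interval from -1.63 to -0.60 and an adjusted p of 0.0236 in limma. Leaving out PBS replicate 1, 2 or 3 raised the adjusted p to 0.0812, 0.101 or 0.0891, and leaving out rapamycin replicate 1 raised it to 0.105. It was 0.0545 when every probe set entered the fit, and the log2 change ranged from -1.37 to -0.87 over all settings. Dendritic cells and some T cells also carry CD101. The dendritic cell list summed to 9.84 to 9.94 with PBS and 9.95 to 10.08 with rapamycin, with 1 gene higher (Itgax) and 1 lower (Bst2) of 8 tested, and the T and NK cell list to 9.67 to 9.83 and 9.23 to 9.45, with 3 of 9 lower (Cd3g, Cd8a and Nkg7). The calls made up 25% of the first list and 33.3% of the second, against 11.3% of all genes. Under the threshold were Xcr1 and Siglech of the first list and Cd3d, Ncr1, Klrb1c and Gzma of the second. Their part in the value of Cd101 was not tested.

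Ltb4r1 stood at 9.51, 9.78 and 9.78 with PBS and at 9.24, 9.20 and 9.37 with rapamycin (probe set 10415392). Every rapamycin array lay below every PBS array, and PBS replicate 1 was the lowest of its group. The change was -0.42 ± 0.09 (SE), with a 95% interval from -0.62 to -0.21 and an adjusted p of 0.0273 in limma. The adjusted p passed the threshold no longer when PBS replicate 2 (0.111) or 3 (0.0958) was left out. The same held for rapamycin replicate 1 (0.110) or 2 (0.0819), and when every probe set entered the fit (0.0560). The sort does not separate neutrophils from other CD11b+ cells, and the part of other cells in the value of Ltb4r1 was not tested.

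Slpi stood at 7.02, 7.08 and 7.18 with PBS and at 7.70, 7.50 and 7.54 with rapamycin (probe set 10489463). The rapamycin mice lay above the PBS mice with a gap larger than the range within either group. The change was 0.48 ± 0.07 (SE), with a 95% interval from 0.32 to 0.65 and an adjusted p of 0.0102 in limma, and it was called in 15 of 16 other settings, the exception being without PBS replicate 2 (0.48, adjusted p 0.0615). Macrophages can also make Slpi. The monocyte and macrophage list summed to 13.0 to 13.4 with PBS and 13.5 to 13.6 with rapamycin. Of 18 of these genes tested, Cd14, Cd68 and Trf were higher and Ace, Cd300e and Ccr2 lower, or 33.3% called against 11.3% of all genes. Their part in the value of Slpi was not tested.

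Wfdc21, a small secreted protein with a whey acidic protein domain like that of Slpi, stood at 11.24, 11.46 and 11.46 with PBS and at 11.55, 11.65 and 11.57 with rapamycin. The groups did not overlap, and the change of 0.21 ± 0.07 did not pass the test (limma adjusted p 0.109). Dgat2, which makes triglycerides and marks late neutrophils, stood at 9.92, 10.08 and 10.09 with PBS and at 9.75, 9.91 and 9.66 with rapamycin. Each rapamycin array was below each PBS array, and the change of -0.26 ± 0.08 missed the threshold (limma adjusted p 0.0779), but was called after quantile normalization again (-0.30, adjusted p 0.0426).

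Csf3r, the receptor for G-CSF, which drives neutrophil production, stood at 11.44, 11.38 and 11.46 with PBS and at 11.58, 11.70 and 11.20 with rapamycin. Rapamycin replicates 1 and 2 were above every PBS array and replicate 3 below. Its change was 0.065 ± 0.12 (SE), and was at -0.023 after quantile normalization again and at -0.040 without rapamycin replicate 2. Hdc, histidine decarboxylase, the enzyme that makes histamine, showed the same arrangement: it stood at 11.18, 11.25 and 11.25 with PBS and at 11.57, 11.62 and 10.98 with rapamycin. Its change was 0.16 ± 0.16 (limma adjusted p 0.552), 0.37 without rapamycin replicate 3 (adjusted p 0.0188), 0.070 without replicate 1 (0.849) and 0.045 without replicate 2 (0.891). Hdc is also a gene of basophils, and their part in its value was not tested.

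Retnlg, a resistin-like secreted protein of mature neutrophils, ranged from 12.78 to 12.95 over the 6 arrays and changed by 0.040 ± 0.057 (SE), with -0.029 after quantile normalization again. Cd24a, a surface glycoprotein that neutrophils share with B cells and red cell precursors, changed by 0.071 ± 0.064, with -0.062 in that setting. Ceacam1, an inhibitory adhesion receptor, changed by -0.056 ± 0.079, with 0.021 without rapamycin replicate 3. None of the 3 passed the test, with limma's adjusted p between 0.513 and 0.686, and in each the groups overlapped.

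The rapamycin mice were less alike than the PBS mice in these genes. The median SD over the 34 genes was 0.099 with rapamycin and 0.060 with PBS, and 21 of 34 genes had the larger SD with rapamycin. Over all genes tested the median SD was 0.072 and 0.065, with the larger SD under rapamycin in 53.9%. Ctsg (SD 0.53), Cd101 (0.50), Hdc (0.36), Olfm4 (0.32) and Mpo (0.29) varied most between rapamycin mice. Rapamycin replicate 3 was the lowest of the 6 arrays for 5 of 10 late-stage genes and the highest for 0 of them. In the primary group it was the highest array for 3 of 8 genes, namely Elane, Prtn3 and Ctsg, and the lowest for 0. Rapamycin replicate 2 was the highest array for 5 of 10 late-stage genes and the lowest for 4 of 8 primary genes. These arrangements are descriptions and were not tested.

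Genes that neutrophils use around these granules were read from 4 lists of non-members. Of 88 such genes bright enough to test, 13 were called higher and 8 lower, or 23.9% against 11.3% of all genes, with a median log2 change of -0.010. The lists were chosen with earlier results of these data known, so this share is a description only. Without PBS replicate 2 the 13 and 8 became 4 and 0, 6 and 2 when PBS replicate 1, PBS replicate 3 or the first rapamycin mouse was left out, and 6 and 5 when the second rapamycin mouse was. Without rapamycin replicate 3 they were 15 and 6. Calls over all genes fell in these fits as well, from 1584 to 113 without PBS replicate 2. They were 700 and 407 without PBS replicates 1 and 3, and 368, 712 and 1336 without rapamycin replicates 1, 2 and 3. Without a brightness filter the 13 and 8 of these lists were 9 and 5, and when every probe set entered the fit 8 and 3. The balance of directions moved with the scaling, at 11 and 11 after quantile normalization again, 17 and 6 with the medians of the genes tested aligned and 11 and 10 with those of all probe sets aligned.

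Among 16 transcription factors of granulocyte development 1 rose and 4 fell, or 31.25% called against 11.3% of all genes, with a median of -0.061. Gfi1, the repressor that commits progenitors to the neutrophil lineage, changed by -0.34 ± 0.07 (SE), from 7.56, 7.62 and 7.73 to 7.26, 7.21 and 7.41. Mxd1, a Myc antagonist of maturing granulocytes, changed by -0.37 ± 0.08, Junb, an AP-1 subunit, by -0.46 ± 0.09, and Cbfb, the partner of the Runx factors, by -0.18 ± 0.04. Rara, the retinoic acid receptor that drives granulocyte maturation, rose by 0.27 ± 0.05. Limma's adjusted p was 0.0273 for Gfi1, 0.0358 for Mxd1, 0.0246 for Junb, 0.0355 for Cbfb and 0.0230 for Rara. Cebpe, the C/EBP factor of secondary granules, changed by -0.077 ± 0.054 and Cebpa, of the primary granule stage, by 0.24 ± 0.07 (limma adjusted p 0.398 and 0.0723).

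Among 22 genes of granule assembly and release 4 rose and 2 fell, or 27.3% called against 11.3% of all genes, with a median of -0.019. Ctsc, the dipeptidase that activates elastase, proteinase 3 and cathepsin G, rose by 0.29 ± 0.07 (SE), from 11.83, 11.74 and 11.64 to 12.16, 11.97 and 11.97. Vamp8 and Stx3, membrane fusion proteins of secretion, rose by 0.36 ± 0.05 and 0.25 ± 0.06, and Lyst, which controls the size of granules and lysosomes, by 0.27 ± 0.07. Vps33b, of vesicle sorting, changed by -0.38 ± 0.05 and Vamp7, another fusion protein, by -0.46 ± 0.10. Limma's adjusted p ran from 0.0075 for Vps33b to 0.0463 for Lyst. Srgn, the proteoglycan that packs granule proteins, changed by 0.11 ± 0.05 (limma adjusted p 0.210).

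Among 21 other granule proteins 1 rose, Qsox1, a sulfhydryl oxidase (0.30 ± 0.05), and 1 fell, Arsb, a lysosomal sulfatase (-0.44 ± 0.06). The share called was 9.52%, against 11.3% of all genes. The tertiary granule enzymes Mmp8 and Mmp9, a collagenase and a gelatinase, changed by 0.0099 ± 0.066 and -0.060 ± 0.066 (SE). Among 29 other genes of mature neutrophils 7 rose and 1 fell, or 27.6% called against 11.3% of all genes, with a median of 0.15. Ifitm1 and Ifitm2, interferon-induced membrane proteins, rose by 0.99 ± 0.09 and 0.55 ± 0.06, and Steap4, a metalloreductase, by 0.87 ± 0.22. Pla2g7, which breaks down platelet-activating factor, rose by 0.44 ± 0.05, and Slfn4, a Schlafen protein, changed by -0.36 ± 0.09. Il1r2, Il1f9 and Trem1 made up the rest of those higher. Limma's adjusted p ran from 0.0041 for Ifitm1 to 0.0491 for Slfn4. Ly6g, the neutrophil surface marker, stood at 12.19, 12.36 and 12.33 with PBS and at 12.05, 12.25 and 11.66 with rapamycin, lowest in rapamycin replicate 3 like Cd101.

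**Figure D4:**
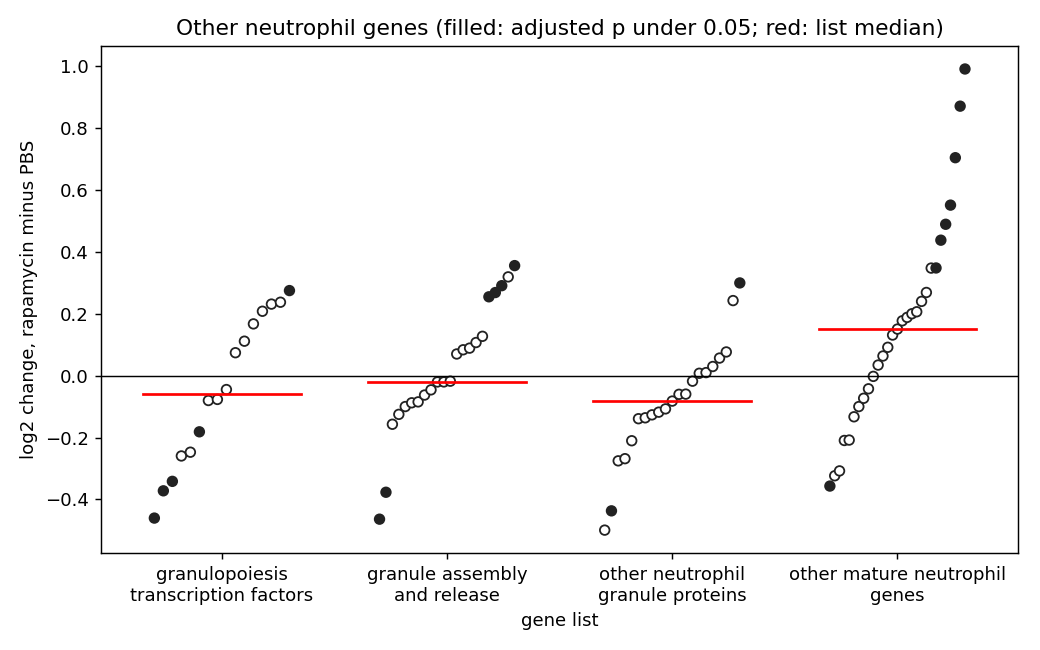
Log2 change with rapamycin (y axis) of each gene tested in 4 lists of neutrophil genes outside the set (x axis), sorted within a list. Filled points passed at an adjusted p under 0.05 and red lines are list medians, of which that of the mature neutrophil genes is the highest at 0.15.

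Markers of dividing cells, which early granulocyte stages express, were called lower in 2 of 14 genes (Mcm5 and Rrm2) and higher in 0. The share called was 14.3%, against 11.3% of all genes, and the list median was 0.027. In limma 6 of the 14 had an unadjusted p under 0.05, against 28.2% of all genes. Of these Birc5 and Bub1 were higher with rapamycin, by 0.14 and 0.17, and Ccna2, Mcm2, Mcm5 and Rrm2 were lower. Immediate early genes and the heat shock gene Hspa1a, which rise when tissue is dissociated, moved both ways. Of 11 tested Atf3 and Hspa1a rose and Egr1, Ier2, Junb and Jun fell. The share called was 54.5%, against 11.3% of all genes. Of 5 B cell genes tested Cd79b fell, of 8 erythroid genes Slc4a1 rose, and of 5 eosinophil genes Alox15 rose. Those shares were 20%, 12.5% and 20%, against the same 11.3%. The part of these cells and states in the values of the neutrophil genes was not tested.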

How the data were processed

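Biotin-labelled RNA of each mouse was read on 1 Affymetrix array. The authors deposited log2 expression values per probe set, made with RMA in Affymetrix Expression Console per the submitters' processing notes, while versions and the genome build are not given in the sources used here. Since RMA equalises the arrays, it would remove a shift of most genes. The deposited log2 values were used as they stand. The labels give no scan date, and per the labels each array is a biological replicate.

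Gene names came from the platform annotation of 2016. Of 35556 probe sets 21789 had 1 symbol, 1621 several and 12146 are unnamed here, and 21698 of the first matched a RefSeq gene (GRCm38.p6), with 0 symbols changed. Where a gene had several, the brightest by its mean was used. Genes dimmer on average than 4.72, the 30th percentile over named probe sets, were set aside, which left 13965. The test was limma 3.58.1 under R 4.3.3 (lmFit and eBayes, 2-sided, Benjamini-Hochberg over all genes tested), and genes were called at an adjusted p under 0.05. SE and 95% intervals are limma's moderated ones. Bpi was taken from the fit of all 19938 genes. All measured members are named, with the genes called and up to 4 of the strongest from the other lists. Cebpa, Cebpe, Srgn, Mmp8, Mmp9 and Ly6g were added for their known roles after their values were seen. Members, stages and lists were chosen with earlier results of these data known. On simulated data of 13965 genes, the test recovered 25 of 50 genes at a log2 change of 0.3 and 50 of 50 at 0.6, 1 and 2. Of its 184 calls 9 were false. The simulated spread is not given here, so this recovery cannot be carried over to members that vary widely, such as Ctsg (SE 0.24). The labels give no pairing of same-numbered mice, and the main fit used none. The correlations of their deviations from the group means were 0.26, 0.010 and 0.046. Those of mice with different numbers ran from -0.19 to 0.14, and these values cannot decide whether mice were paired. Precision is limited by having 3 arrays a group. Figures were drawn with matplotlib 3.10.9.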

Additional observations from a re-analysis of the deposited data

Results flagged for a closer look

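The annotation gives 2 probe sets to a member together with other genes, so their signal cannot be assigned to a single gene, and they were left out of the comparison. They are given here because their mean with rapamycin lay above all 3 PBS arrays. Probe set 10439292 is shared by 3 genes, Stfa1 among them. It stood at 8.84, 9.30 and 8.73 with PBS and at 10.06, 10.30 and 11.58 with rapamycin, where every array lay above every PBS array and replicate 3 was the highest. The log2 change was 1.69 ± 0.41 (SE), and it did not pass in the limma fit of all 35556 probe sets (adjusted p 0.0726). Probe set 10435497 is shared by 2 genes, Stfa2l1 among them. It stood at 11.85, 12.155 and 11.83 with PBS and at 12.12, 12.155 and 12.57 with rapamycin, and the groups overlapped. The log2 change was 0.34 ± 0.15 (SE, limma adjusted p 0.246). This fit was chosen after seeing the data.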

How the results depend on the processing

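The count of members higher with rapamycin was 1, and that of members lower was 2. With each array left out in turn, the first ranged from 0 to 3 and the second from 0 to 3. The number lower was 5 after quantile normalization again and 4 with the replicate number as a block, where Mpo (adjusted p 0.0187) and Olfm4 (0.0197) joined, and 0 in the fit of every probe set, an alternative chosen after seeing the data like the alignment of medians over all probe sets. In the other settings both counts were the same. The fit with the replicate block otherwise changed no member's call, and the labels do not say whether the numbers pair the mice. Of the 4 neutrophil lists outside the set, 13 genes were called higher and 8 lower. With an array left out these ranged from 4 to 15 and from 0 to 6, they were 8 and 3 in the fit of every probe set, and 5 were lower without a brightness filter. Over 530 combinations of member and setting, 490 kept direction and side of the threshold, 11 lost a call, 8 gained one and 21 changed sign. No sign change involved a called value. After quantile normalization again Lcn2 stood at 0.0041, Padi4 at -0.020, Retnlg at -0.029, Csf3r at -0.023 and Cd24a at -0.062. With the medians of the genes tested aligned, Prtn3 stood at 0.030, Lcn2 at 0.028 and Ngp at 0.0028, and with those of all probe sets aligned Padi4 stood at -0.010. With an array left out, Prtn3 ranged from -0.12 to 0.097, Cd63 from -0.090 to 0.010, Lcn2 from -0.024 to 0.0095, Padi4 from -0.048 to 0.12, Csf3r from -0.040 to 0.21 and Ceacam1 from -0.13 to 0.021. Over all genes, 1584 calls became 868 in the fit of every probe set and between 113 and 1336 with an array left out, in fits with fewer samples. For the other changes the cause was not tested.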
